A study of Spinacia oleracea with 12 samples.

Results

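A set of 100 spinach genes, of 25495 genes measured, was on in PI175311 and off in Bloomsdale in at least 1 tissue. On and off stand here for measured levels alone. A gene was taken when its FPKM (the fragments counted for a gene, divided by its length and by the total of the library) was at least 1 in all 3 PI175311 libraries of a tissue and under 0.05 in all 3 Bloomsdale libraries of that tissue. The rule was met by 79 genes in leaf, named the leaf-rule genes here, and by 53 genes in root, the root-rule genes. Both rules were met by 32 genes, the leaf rule alone by 47 and the root rule alone by 21. In all, 0.392% of the genes met a rule, with 0.31% in leaf and 0.208% in root. These shares, and the levels that chose the genes, are descriptions and carry no test.

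Leaf laminae and roots were taken for RNA sequencing from plants 6 weeks old, with 3 libraries for each genotype and tissue, each taken from plants described as independent. PI175311 is a USDA accession that accumulates much oxalate, and Bloomsdale is an heirloom cultivar that accumulates less, so the comparison of genotypes asks which transcripts go with high oxalate. Both genotypes were grown in a controlled growth chamber, and no treatment that differed between them is described. The sources do not agree on the nitrogen the plants were given, and the paper names a nitrogen-free nutrient solution. Each group stands for 1 accession and its own genetic background, so a difference between the groups is a difference between 2 genotypes and oxalate content cannot be told apart from any other trait in which they differ.

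Spinach is an outcrossing crop, and unrelated accessions of such crops differ in which genes they carry, in the sequence of the genes they share and in how those genes are switched on. Reads of every library were counted against the genes of 1 reference genome, so a gene can be at 0 in a genotype because the gene is missing there, because its sequence has diverged too far for reads to align, or because it was not transcribed. FPKM alone cannot tell these apart. Oxalate, the simplest dicarboxylate, is held to arise in plants from glyoxylate, ascorbate or oxaloacetate, and none of the 15 genes whose identifiers the study's text prints was among the 100.

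The identifiers of the files carry no gene name, description or position, and the RefSeq table of 39719 spinach genes held 0 of the 25495. Genes are therefore given by their identifiers, no function is assigned to any of them, and the tissue labels could not be checked against marker genes. The libraries held 18451262 to 25245734 fragments, and the fragments behind each FPKM value and the length of each gene were recovered from the deposited values. A level in whole-tissue RNA cannot tell fewer expressing cells from less RNA per cell.

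In Bloomsdale the genes were, for the most part, not seen at all. Of the 100 genes, 55 had 0 fragments in all 6 Bloomsdale libraries, which together held 136288964 fragments. A further 11 had a few fragments but stayed under 0.05 FPKM in all 6. These 66 genes were absent from Bloomsdale in both tissues by the measure of the rule, namely all 32 genes that met both rules (which the rules themselves fix), 21 of the 47 that met the leaf rule alone and 13 of the 21 that met the root rule alone. Of the other 34 genes, 31 reached between 0.05 and 1 FPKM in at least 1 Bloomsdale library of the tissue in which they had not met the rule, and 3 reached at least 1 FPKM there. The name of a gene expressed only in PI175311 thus fitted 66 of the 100 genes over both tissues by this measure, which depends on gene length. Among the 34, Spo15840 had 93 fragments in Bloomsdale roots, but Spo09760, of 210 bases, reached 0.194 FPKM with 1 fragment. Spo25825, of 3338 bases, had 4 fragments in Bloomsdale roots and is among the 66.

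The 55 genes at 0 in Bloomsdale were not all near the limit of detection in PI175311. Their fragments, summed over the 6 PI175311 libraries, ran from 23 to 3540 with a median of 329, and came to 32319 in all. Genes with 0 fragments in every Bloomsdale library numbered 2591 in the whole table, of which 684 had a fragment in some PI175311 library and 181 reached 1 FPKM in at least 1 of them. The 55 are those of the 181 that reached 1 FPKM in all 3 libraries of a tissue.

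The threshold for an absent gene was, for most members, a demand for 0 fragments. For 64 of the 100 genes a single fragment was worth 0.05 FPKM or more in every Bloomsdale library. In such a gene 1 stray fragment in any of these libraries was enough to break the rule for the tissue of that library. Of the 79 leaf-rule genes, 74 had 0 fragments in the 3 Bloomsdale leaves, and of the 53 root-rule genes, 46 had 0 fragments in the 3 Bloomsdale roots. Where Bloomsdale was at 0, a fold difference is a lower bound, set against a floor of 3 fragments over the 3 Bloomsdale libraries. The bounds in leaf ran from at least 12.3-fold to at least 1510-fold higher in PI175311 with a median of 62.9, and those in root from at least 7.99-fold to at least 684-fold with a median of 77.7. The floors and bounds cover counting error alone.

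**Figure D1:**
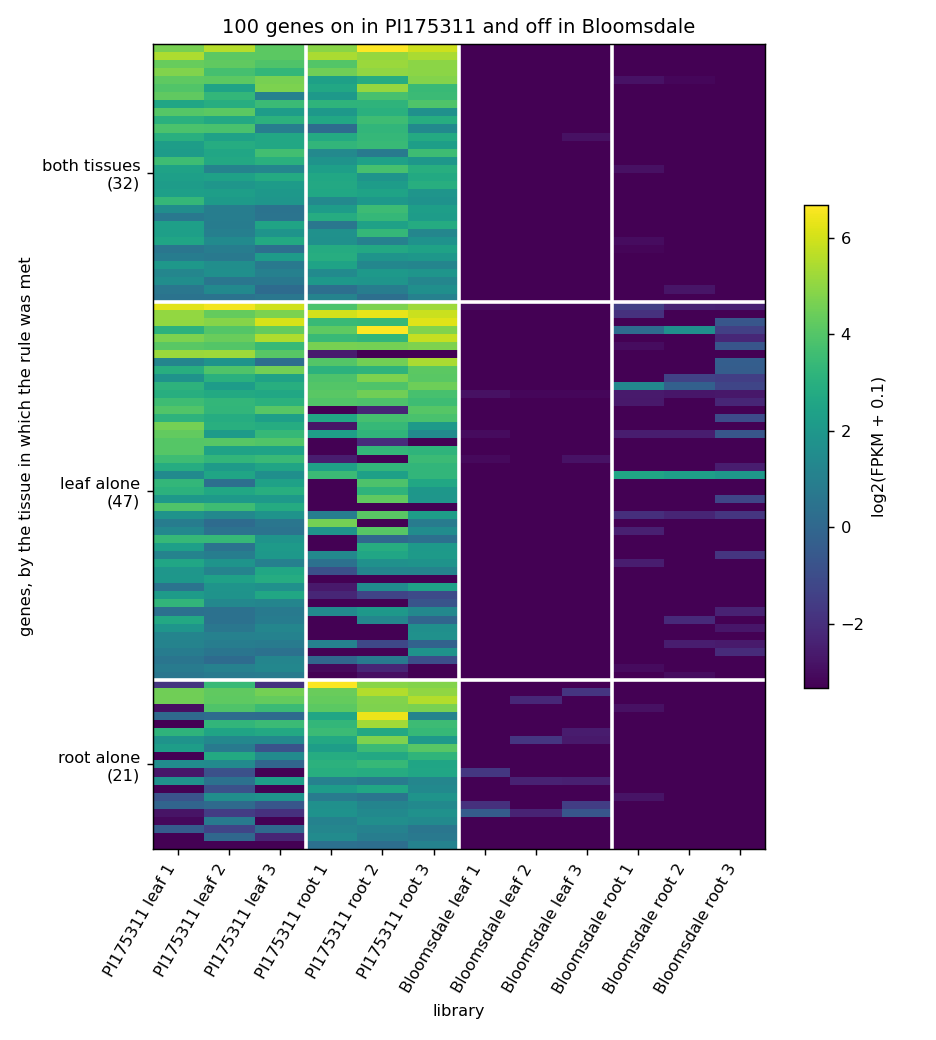
FPKM of the 100 genes (rows) in the 12 libraries (columns), drawn as log2(FPKM + 0.1), with genes grouped by the rule they met. The PI175311 columns hold the signal, the Bloomsdale columns of the rule tissue are dark, at or near 0, by the choice of genes, and signal in the other Bloomsdale tissue, mostly under 1 FPKM, is seen for 26 of the 79 leaf-rule genes and 8 of the 53 root-rule genes.

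Genes of this set were expressed at modest levels in PI175311. The mean FPKM of the 79 leaf-rule genes over the 3 PI175311 leaves ran from 1.35 to 75, with a median of 5.62 and quartiles of 2.64 and 11. The median over all 14986 genes with at least 1 FPKM in every PI175311 leaf was 10.4. The 53 root-rule genes ran from 1.45 to 64.3 in PI175311 roots, with a median of 6.25, beside 13.1 over the 16024 genes with at least 1 FPKM in every PI175311 root. A mean of at least 10 FPKM was reached by 23 leaf-rule and 15 root-rule genes, and a mean of at least 50 by 1 and 2 of them.

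The genes took a small part of each library. Fragments of the leaf-rule genes summed to 17759, 14429 and 15957 in PI175311 leaves 1, 2 and 3, which was 0.0779%, 0.0679% and 0.0632% of those libraries. The same genes summed to 6, 1 and 4 fragments in Bloomsdale leaves 1, 2 and 3. The root-rule genes summed to 7476, 8859 and 9396 fragments in PI175311 roots, or 0.0302%, 0.048% and 0.042%, and to 9, 2 and 0 fragments in Bloomsdale roots.

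The highest level in leaf was that of Spo22863. Its FPKM was 74.3, 89.5 and 61.3 in PI175311 leaves 1, 2 and 3 (mean 75 ± 14.1, SD, n = 3) and 0.0234, 0 and 0 in Bloomsdale leaves. These leaf values rested on 9217 fragments in PI175311 and 1 fragment in Bloomsdale. In root, which the leaf rule did not use, it had 14.4, 26 and 37.3 in PI175311 and 0.274, 0.102 and 0.0907 in Bloomsdale. The groups were far apart in root as well, with a log2 difference of 6.64 ± 0.46 (SE). The adjusted p was 0.00128 by limma with Benjamini-Hochberg adjustment over all genes tested. Genes were tested when they had 1 FPKM or more in at least 3 of the 6 libraries. Spo22863 passed this filter through its PI175311 roots alone, and without the filter its adjusted p was 0.00133 by limma.

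The highest root level of the root-rule genes, and the highest mean over the PI175311 libraries of the genes absent from Bloomsdale in both tissues, was that of Spo24884. It had 24.5, 47.2 and 17.6 FPKM in PI175311 leaves and 30, 102 and 60.8 in PI175311 roots, and 0 fragments in each of the 6 Bloomsdale libraries. All 6 PI175311 values were high, and root 1 was the lowest of the roots. On the lower bound, Spo24884 was at least 310-fold higher in leaf and at least 684-fold higher in root.

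Spo06410 had 43.4, 17.9 and 17.5 FPKM in PI175311 leaves and 42.8, 34.4 and 42.3 in PI175311 roots, with 0 fragments in Bloomsdale. Its roots varied little, with a coefficient of variation of 11.8%. Spo24912 followed a like course, at 27.5, 13.1 and 9.68 FPKM in leaf and 22.9, 32.4 and 30.2 in root. In both genes leaf 1 stood above the other leaves. Spo04162 was more even in leaf, at 20.3, 18.8 and 15.2 FPKM, and had 16.1, 35.8 and 30.4 in root. Bloomsdale was at 0 fragments for both of these genes as well.

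Spo25825, a long gene of 3338 bases, gave the widest bound in leaf, at least 1510-fold, from 4703 PI175311 leaf fragments against 0. It had 18.1, 17.7 and 24.6 FPKM in PI175311 leaves and 5.06, 7.29 and 27.8 in roots, and in Bloomsdale roots 0.0402, 0.0137 and 0. Root 3 stood above the other PI175311 roots. Spo09358 and Spo06208, which met the root rule alone, were high in leaf as well. Spo09358 had 20.6, 46.1 and 32.6 FPKM in PI175311 roots, 22.4, 18.7 and 23.6 in PI175311 leaves, and 0, 0 and 0.194 in Bloomsdale leaves. Spo06208 had 19.8, 27.4 and 46.3 in PI175311 roots, 22.8, 18.4 and 20 in PI175311 leaves, and 0, 0.119 and 0 in Bloomsdale leaves. The leaf libraries did not choose these genes. The leaf difference was 7.23 ± 0.48 (SE) on the log2 scale for Spo09358 and 7.30 ± 0.42 for Spo06208. The adjusted p was 8.17e-05 and 4.21e-05 by limma, and the groups did not overlap. Both genes passed the filter through their PI175311 leaves alone, and without it the adjusted p was 0.000124 and 6.1e-05 by limma.

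The median spread among the PI175311 libraries of a tissue was wider for these genes than over all genes on. The coefficient of variation over the 3 PI175311 leaves had a median of 38.9% over the leaf-rule genes, from 2.44% to 91.7%, against 18.7% over all genes on in every PI175311 leaf. In root it had a median of 35.6% over the root-rule genes, from 11.7% to 150%, against 21.8%. Fewer fragments per gene moved with this. The median gene of the leaf rule had 67 fragments per PI175311 library against 387 for all genes on in leaf, and that of the root rule 82.3 against 433, so that counting error alone gave a median of 12.2% and 11% for the members and 5.08% and 4.81% for the others. These counting medians lay below the spread measured, and the part of counting error in the wider spread was not tested.

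Among the root-rule genes the widest spread in root, by coefficient of variation, was that of Spo05526, at 5.98, 84.1 and 2.15 FPKM in PI175311 roots and a steady 0.975, 1.05 and 1.03 in leaves. Root 2 alone was high. Spo27259 had 2.48, 1.66 and 11.9 in roots, and Spo17870 had 1.02, 9.54 and 2.55. Among the leaf-rule genes the widest spreads in leaf were those of Spo28081, at 6.47, 1.23 and 1.75 FPKM, Spo05459, at 9.36, 2.45 and 2.26, and Spo09657, at 18.6, 9.68 and 2.02. Leaf 1 was the highest of the 3 leaves for each of these leaf genes. Bloomsdale had 0 fragments in the tissue of the rule for all 6 of these genes.

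Each rule looked at 1 tissue, so the other tissue shows how far the genotype difference reached. The root libraries did not choose the leaf-rule genes. In root, 53 of the 79 leaf-rule genes passed the filter, 1 FPKM or more in no fewer than 3 of 6 libraries, and were tested, and 52 were called higher in PI175311 at an adjusted p under 0.05 by limma. Over all 18197 genes tested in root, 2.93% were called higher and 9.7% lower. By limma 0 of the leaf-rule genes were called lower and 0 were lower at an unadjusted p under 0.05, and limma-voom on the recovered fragments called 0 lower as well. All but 1 of the tested genes passed the filter through their PI175311 roots alone, so the share called among them is no support in itself and the count is best read over all 79. The median log2 difference of those tested was 5.92, which the filter sets in part.

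Without the filter, 77 of the 79 leaf-rule genes could be tested in root and 55 were called higher and 0 lower, where 2.37% and 6.84% of all genes were. All 3 PI175311 roots lay above all 3 Bloomsdale roots for 58 of the 79, as they did for 7.38% of all genes in the table. The mean FPKM of the 79 in PI175311 roots had a median of 5.39 and reached 67, and the mean in Bloomsdale roots had a median of 0 and reached 4.82. At least 1 FPKM was found in all 3 PI175311 roots for 53 genes, in 2 for 9, in 1 for 9 and in none for 8. Bloomsdale roots had 0 fragments of 46 of the 79, as of 12.3% of all genes, and at least 0.05 FPKM in some library for 26.

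The root-rule genes behaved alike in leaf. Of the 53, 37 were tested and all 37 were called higher in PI175311 leaf, where 4.04% of the 16764 genes tested were called higher and 6.08% lower. As 0 of the 53 reached 1 FPKM in a Bloomsdale leaf, all 37 passed the filter through their PI175311 leaves, and the share of the 37 is no support either. By limma 0 were called lower and 0 were lower at an unadjusted p under 0.05, and limma-voom called 0 lower. Without the filter 52 were tested and 42 called higher and 0 lower, beside 3.63% and 5.28% of all genes. All 3 PI175311 leaves lay above all 3 Bloomsdale leaves for 45 of the 53, as for 8.66% of all genes. Bloomsdale leaves had 0 fragments of 44 of the 53, as of 15.6% of all genes, and a mean of at most 0.435 FPKM, while PI175311 leaves had a median mean of 3.61. The lists share 32 genes, so the counts in leaf and root are not 2 independent results.

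**Figure D2:**
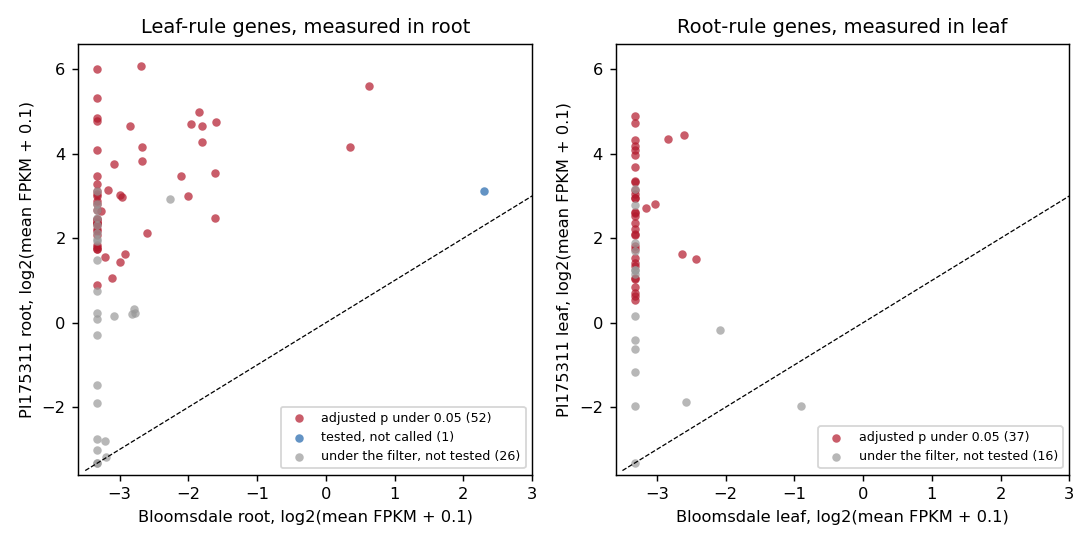
Each leaf-rule gene in roots and each root-rule gene in leaves, the tissue that did not choose it, with Bloomsdale (horizontal) and PI175311 (vertical) as log2(mean FPKM + 0.1) and 1 point a gene. Nearly all points lie on the PI175311 side of the line of equal levels. Spo15840 lies close to the line, and Spo06059 lies on the Bloomsdale side in leaf. Genes at or near 0 in both genotypes, such as Spo15240, Spo26128 and Spo05473, lie on the line or by it.

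Spo15840 was the exception among the leaf-rule genes tested in root. Its FPKM was 2.65, 5.84 and 3.09 in PI175311 leaves and 0 in every Bloomsdale leaf. In root it had 11.2, 5 and 9.5 in PI175311 and 5.71, 4.86 and 3.89 in Bloomsdale, where 93 fragments were counted. The groups overlapped in root, and the log2 difference of 0.75 ± 0.34 (SE) had an adjusted p of 0.18 by limma. Without PI175311 root 2 the difference was 1.10 with an adjusted p of 0.0388. It was the sole member with at least 1 FPKM in all 3 Bloomsdale libraries of a tissue, which makes it a gene that Bloomsdale expressed in root and not detectably in leaf.

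Spo22562 and Spo22893 also reached 1 FPKM in a Bloomsdale root. Spo22562 had 2.42, 0.743 and 0.33 FPKM in Bloomsdale roots and 16.1, 15 and 22.1 in PI175311 roots. Spo22893 had 1.03, 3.02 and 0.268 in Bloomsdale roots and 18.1, 99.6 and 27.4 in PI175311 roots. The groups did not overlap for either gene, and the adjusted p was 0.0163 and 0.0263 by limma, with log2 differences of 4.18 ± 0.64 and 5.08 ± 0.94 (SE). Without the filter the adjusted p was 0.0182 and 0.0292 by limma. Spo00588, short at 270 bases, had 32.8, 19.7 and 26.1 FPKM in PI175311 leaves and 64.1, 78.9 and 58.1 in PI175311 roots, and missed the root rule through Bloomsdale root 1, at 0.166. These 3 genes were singled out after their values were seen.

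Among the root-rule genes the largest Bloomsdale signal in leaf was that of Spo06059. It had 3.29, 2.61 and 3.27 FPKM in PI175311 roots and 0 in Bloomsdale roots, while its leaves had 0.046, 0.246 and 0.166 in PI175311 and 0.659, 0.102 and 0.542 in Bloomsdale. All the leaf values were low and the groups overlapped. This gene, too, was singled out after its values were seen.

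In PI175311 itself, 58 of the 100 genes had at least 1 FPKM in all 6 libraries, and 32 of these were absent from Bloomsdale in both tissues. Genes under 1 FPKM in every PI175311 library of 1 tissue were less common. The 8 genes Spo01838, Spo05238, Spo05459, Spo08026, Spo13581, Spo15240, Spo19620 and Spo26128 were on in every PI175311 leaf and under 1 FPKM in every PI175311 root, and all 8 were absent from Bloomsdale in both tissues. The 7 genes Spo02630, Spo02707, Spo02955, Spo05473, Spo06059, Spo12308 and Spo22327 were on in every PI175311 root and under 1 FPKM in every PI175311 leaf, and 4 of them were absent from Bloomsdale in both tissues. Being under 1 FPKM was not always a clear tissue limit. Spo05473 had 0 fragments in PI175311 leaves, but Spo22327 had 0.844, 0.996 and 0.533 FPKM there against 3.18, 2.19 and 2.58 in PI175311 roots. The other 27 genes reached 1 FPKM in 1 or 2 of the 3 PI175311 libraries of the other tissue, and 22 of these were absent.

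Spo08026 had the highest leaf level of the 8. It had 35.5, 36.5 and 16.7 FPKM in PI175311 leaves, 0.0686, 0 and 0 in PI175311 roots, and 0 fragments in Bloomsdale. That is 3537 fragments over the PI175311 leaves and 3 over the PI175311 roots, and at least 1172-fold more in PI175311 leaf than in Bloomsdale leaf. Spo01838 was the most even of the 8, at 16.2, 17 and 15.3 FPKM in leaf against 0, 0.142 and 0 in root. Spo15240, at 15.2, 11.8 and 6.98 in leaf, and Spo26128, at 3.82, 5.17 and 7.28, had 0 fragments in every root library of either genotype. For Spo15240 and Spo26128 a count of 0 allows up to 3 fragments over the 3 roots of a genotype.

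Spo23452, the second highest root-rule gene, was weak in most leaves. It had 97.9, 29.9 and 28.2 FPKM in PI175311 roots and 0.195, 10.5 and 0.176 in PI175311 leaves, with 0 fragments in Bloomsdale. Leaf 2 stood far above the other leaves, and every root lay above every leaf. Spo02955 had 7.51, 7.11 and 5.97 FPKM in PI175311 roots against 0.0538, 0.461 and 0 in leaves, and Spo05473 had 1.18, 1.13 and 2.05 in roots and 0 fragments in every leaf of either genotype.

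The comparison of leaf with root inside PI175311 was made for the 32 genes that met both rules, for which the rules ask the same level in both tissues. The rules leave out genes limited to 1 tissue, so the number called is set in part by the choice of genes and is not read against the share of all genes. With limma over all 12 libraries, 1 was higher in leaf, 4 were higher in root and 27 were not called, and of the 19549 genes tested 15.9% were higher in leaf and 47.5% higher in root. The mean of the log2 values was higher in root for 24 of the 32 genes and higher in leaf for 8. For Spo09657 the log2 difference was -0.25, while its mean FPKM was 10.1 in leaf and 9.6 in root. Their median log2 difference, leaf minus root, was -0.30 beside -0.64 over all genes. The split depended on the scaling. With median-of-ratios scaling 5 were higher in leaf and 3 in root, and with quantile normalization 4 and 2. The median over all genes then moved from -0.64 to -0.10 and -0.14, and that of the 32 genes changed sign to 0.24 and 0.25.

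**Figure D3:**
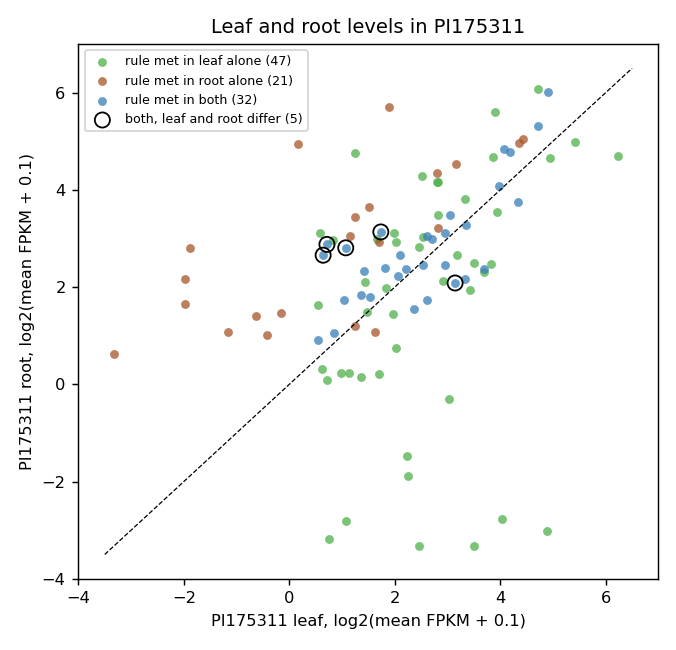
The 100 genes in PI175311 leaves (horizontal) and PI175311 roots (vertical) as log2(mean FPKM + 0.1), with 1 point a gene and colours for the rule it met. The 32 genes that met both rules lie near the line of equal levels, most of them on the root side, and the genes of 1 rule spread to the edges.

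Spo16824 was the gene called higher in leaf. It had 11.7, 6.46 and 8.08 FPKM in PI175311 leaves and 3.37, 5.22 and 3.84 in PI175311 roots, which did not overlap, with a log2 difference of 1.04 ± 0.34 (SE) and an adjusted p of 0.0195 by limma. Without PI175311 leaf 1 the difference was 0.81 and without root 1 it was 0.91, with adjusted p of 0.091 and 0.0617. Without root 3 it hardly moved and the adjusted p was 0.0502. The call is thus close to the threshold. Spo17870 and Spo17871 had larger differences, 1.26 and 1.21, but were not called, with adjusted p of 0.212 and 0.0665. Spo17870 had 14.1, 14 and 1.85 FPKM in leaves and Spo17871 had 16.3, 17.6 and 4.46, so leaf 3 was low in both. Without leaf 3 the differences were 2.21 and 1.85 with adjusted p of 0.0278 and 0.00658, and without root 2 they were 2.09 and 1.61 with 0.0449 and 0.0303.

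The genes called higher in root were Spo03942, Spo22946, Spo24822 and Spo22366. Spo03942 had 1.52, 1.78 and 1.33 FPKM in PI175311 leaves and 7.12, 10.1 and 4.49 in roots, and fell by 2.09 on the log2 scale from root to leaf (adjusted p = 0.00066 by limma). Spo22946, the longest member at 4125 bases, had 1.41, 1.8 and 1.15 in leaves and 6.93, 6.41 and 5.26 in roots (-2.03, adjusted p = 0.000391 by limma). In these genes every root library lay above every leaf library. Spo24822 had 2.91, 1.79 and 1.29 in leaves and 4.51, 11.5 and 4.7 in roots (-1.67, adjusted p = 0.00718 by limma), and with quantile normalization its adjusted p was 0.0548. Spo22366 had 5.31, 2.09 and 2.3 in leaves and 4.91, 13.6 and 7.56 in roots, so that leaf 1 lay above root 1, with a difference of -1.40 and an adjusted p of 0.0217 by limma. It was not called with median-of-ratios scaling (-0.86, adjusted p = 0.115) or quantile normalization (-0.82, 0.121), nor without leaf 2 (-1.16, 0.0859), leaf 3 (-1.23, 0.0781) or root 2 (-1.02, 0.0899).

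A part of the set was on in some PI175311 libraries of a tissue and off in others. Of the 79 leaf-rule genes, all of which were on in every PI175311 leaf, 14 were under 0.05 FPKM in at least 1 PI175311 root and at or above 1 FPKM in another. That is 17.7%, where 0.794% of the 14986 genes on in every PI175311 leaf showed this pattern. Root 1 was off for 12 of the 14 genes, root 2 for 5 and root 3 for none. Of the 53 root-rule genes, 4 showed the like pattern among PI175311 leaves, or 7.55% against 0.456% of the 16024 genes on in every PI175311 root, and leaf 1 was off for all 4. The members also had fewer fragments per library than the other genes, as given above, and the part of that in this pattern was not tested.

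Some of these genes were not low where they were on. Spo07254 had 11.7, 9.41 and 10.9 FPKM in PI175311 leaves, and in PI175311 roots 0.073, 0 and 11.1. Spo19520 had 15.6, 9.47 and 16.8 in leaves, and 0, 0.104 and 16.3 in roots. For both genes root 3 was as high as the leaves and the other roots were at or near 0. Spo20739, Spo23519 and Spo24193 were likewise on in root 3 alone, at 3.45, 3.02 and 3.23 FPKM, with 0 fragments in roots 1 and 2. Spo06510 was off in root 2 alone, at 24, 0 and 1.68 FPKM in roots 1, 2 and 3.

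A larger number were off in root 1 alone. Spo00422 had 3.88, 4.02 and 4.07 FPKM in PI175311 leaves and 0, 18.8 and 3.7 in PI175311 roots. Spo08044 had 0, 14.8 and 6.13 in roots, Spo26484 had 0, 9.78 and 8.87, Spo07833 had 0, 8.95 and 3.86, and Spo24892 had 0, 7.43 and 4.08. Spo22095, at 23.9, 7.79 and 7.18 in leaves, had 0.0494, 10.2 and 4.32 in roots, which was near 0 in root 1 as well. The files do not say which leaf and root came from 1 plant, so an absence in root 1 cannot be set against the leaf of the same plant.

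In leaf the pattern was smaller. Spo20022 had 0.0346, 15.2 and 11.3 FPKM in PI175311 leaves and 17.5, 26.7 and 25.1 in roots. Spo12648 had 0, 9.37 and 11.1 in leaves and 9.67, 39.3 and 11.4 in roots. Spo00549 had 0, 6.69 and 2.72 in leaves and 7.12, 6.38 and 9.19 in roots. Leaf 1 was at or near 0 for each of them, and the other leaves were above 1 FPKM. Spo02716 was weaker, at 0.0147, 1.62 and 0 in leaves.

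**Figure D4:**
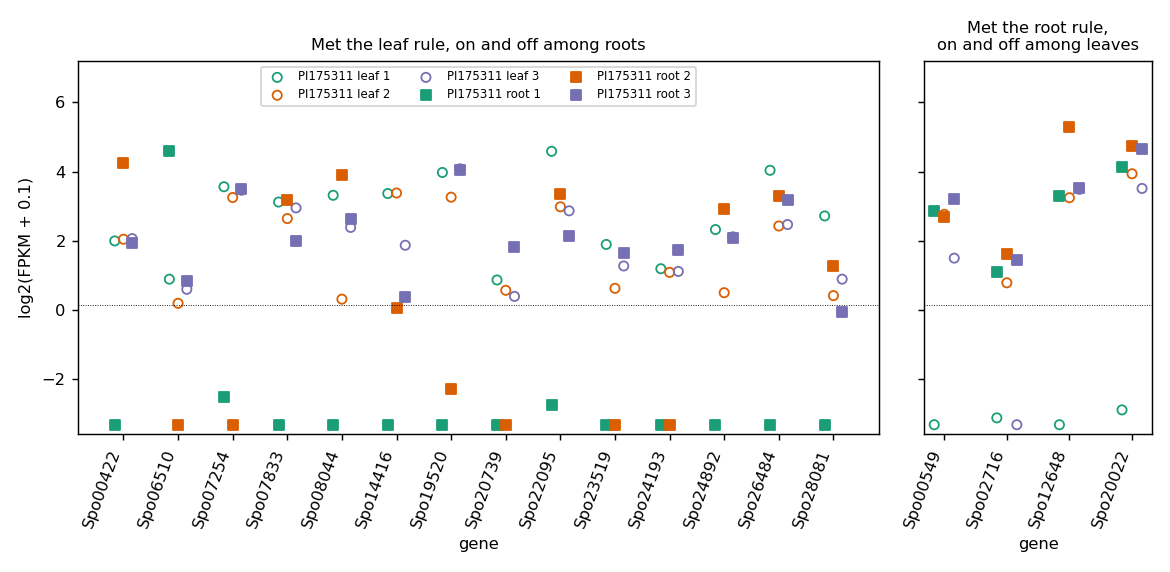
Levels in each PI175311 library, as log2(FPKM + 0.1), of the 14 leaf-rule genes and the 4 root-rule genes that were on in 1 library and off in another of the other tissue (filled points for roots, open for leaves, a colour for each replicate, a dotted line at 1 FPKM). Root 1 is the library that was off for 12 of the 14 genes, and leaf 1 for all 4.

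Single Bloomsdale libraries also decided which genes entered the set. Without Bloomsdale root 3 the root rule was met by 100 genes in place of 53, since 47 further genes were kept out by that library alone. Its values for those 47 ran from 0.0759 to 9.22 FPKM with a median of 1.56, and 26 were at or above 1. Bloomsdale leaf 2 kept out 30 genes in the same way, at 0.0527 to 22.5 FPKM with a median of 1.52, and 17 were at or above 1. The other 4 Bloomsdale libraries kept out 3 to 10 genes each, none of which reached 1 FPKM there. These 26 and 17 genes were thus on in 1 Bloomsdale library of the tissue and off in its other libraries, and did not enter through that tissue.

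The levels nearest the thresholds show how fine the division was. In leaf, Spo27126 entered with a lowest PI175311 value of 1.03 FPKM and Spo24192 was left out at 0.977, and Spo07254 entered with a highest Bloomsdale value of 0.0391 where Spo13455 was left out at 0.0527. In root, Spo17870 entered at 1.02 and Spo00602 was left out at 0.992, and Spo00033 entered at 0.0478 where Spo18952 was left out at 0.0554.

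Some members had neighbouring identifier numbers. Such runs were 4 in number and held 10 members, namely Spo03941 with Spo03942, Spo09759 with Spo09760, Spo17870 with Spo17871, and the run of 4 from Spo27258 to Spo27261. The files give no positions, so whether neighbours in number are neighbours on a chromosome is not known here. Members of a run had like profiles in some cases. Spo27260 had 32.7, 28.8 and 66.2 FPKM in PI175311 leaves and 10.9, 10.3 and 73.3 in PI175311 roots, and Spo27261 had 26.2, 20.8 and 45.1 in leaves and 10.6, 9.53 and 55.3 in roots. Spo27258 had 7.68, 14.9 and 23.4 in leaves and 8.4, 9.03 and 17.5 in roots, and Spo27259 had 4.43, 5.99 and 12.5 in leaves.

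All 4 genes of that run were highest in replicate 3 of both tissues, and 3 of them had their sole Bloomsdale signal in Bloomsdale root 3. Those Bloomsdale values were 0.533 FPKM for Spo27260, 0.118 for Spo27261 and 0.677 for Spo27258, while Spo27259 had 0 fragments in Bloomsdale. In root, which did not choose it, Spo27260 had a log2 difference of 6.78 ± 1.06 (SE) with an adjusted p of 0.0174 by limma. This gene passed the filter through its PI175311 roots alone, and without the filter the adjusted p was 0.0189 by limma. Without Bloomsdale root 1 or root 2 the difference was 6.33 in both cases with adjusted p of 0.0793 and 0.0867, and with limma-voom it was 7.67 with 0.0624, so the difference stayed large and the call was lost. Spo03941 and Spo03942 were alike in being higher in PI175311 roots, at 8.57, 10.3 and 5.76 FPKM for the first against 2.83, 2.66 and 0.852 in its leaves.

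Spo04578 is a member that met both rules. Its identifier comes just before that of Spo04579, 1 of 3 genes that the study lists as glyoxylate reductase-like. A neighbouring number gives Spo04578 neither a position nor a function. Glyoxylate reductases turn glyoxylate into glycolate, but the study describes Spo04579 and Spo00830 as truncated proteins. Spo04578 had 4.9, 1.87 and 3.47 FPKM in PI175311 leaves and 3.21, 9.93 and 2.31 in PI175311 roots. Spo04579 had 16.4, 0 and 9.64 in leaves and 13.6, 26.1 and 0 in roots, with 0 in all 6 Bloomsdale libraries. It was thus off in PI175311 leaf 2 and root 3, where Spo04578 was on, and did not enter the set. Spo00830, the second of the 3, followed Spo04579, at 2.66, 0 and 1.53 in leaves and 2.25, 7.74 and 0 in roots, with Bloomsdale at 0. Spo26769, the third of them, had 1.78, 0 and 0.943 in leaves and 1.34, 3.94 and 0.106 in roots. These 3 genes were thus seen in some PI175311 libraries and, but for 0.0484 FPKM of Spo26769 in Bloomsdale root 3, in no Bloomsdale library. They are given because the glyoxylate route bears on oxalate, and were chosen after their values were seen.

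The members were short genes. Their recovered lengths had a median of 617 bases, from 120 to 4125 with quartiles of 398 and 956, and 77% were under 1000 bases. Of the 17414 genes with at least 1 FPKM in all 3 PI175311 leaves or all 3 PI175311 roots, 28% were under 1000 bases and the median was 1534. The 109 genes that met the reverse rule, on in Bloomsdale and off in PI175311, were short too, with a median of 544 bases and 77.1% under 1000. Among the members the median was 487 bases for genes of both rules, 660 for the leaf rule alone and 605 for the root rule alone. Length enters the rule, since a single fragment weighs more FPKM in a short gene and, at a given FPKM, a short gene gives fewer fragments, so the lengths are a description with no test.

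**Figure D5:**
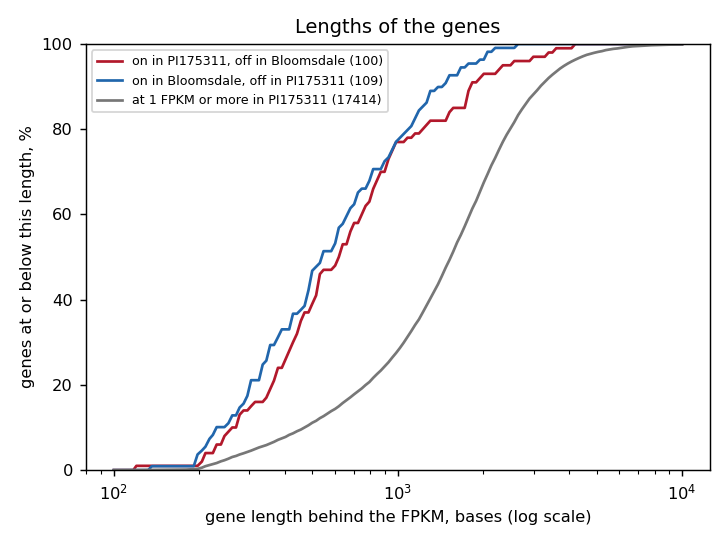
Cumulative share of genes (vertical, percent) by recovered gene length in bases (horizontal, log axis) for the 100 members, the 109 genes of the reverse rule and the 17414 genes on in PI175311. The curves of the members and of the reverse set lie close together and to the left, with 77% and 77.1% under 1000 bases, against 28% of the genes on in PI175311.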

How the data were processed

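RNA-seq of 12 libraries (leaf and root of PI175311 and Bloomsdale, 3 each) was analysed from the authors' deposited FPKM of 25495 genes. Per the submitters' processing notes, reads were handled with fastp, HISAT2 2.1.0, featureCounts and DESeq2, whereas the paper names TopHat, HTSeq and DESeq. Which of these made the FPKM, the strand setting and the genome build are not given in the sources used here. Multi-copy genes and overlapping genes may share fragments. Whole fragments, library totals and gene lengths were solved from the FPKM as the smallest whole numbers that fit every library (all 23588 genes above 0, within 1e-04 fragments plus 2e-09 of the number, and 0 of 2000 genes with altered totals), which may understate genes seen in few libraries.

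Genotypes were compared within a tissue, and PI175311 leaf with root over all 12 libraries, on the scale log2(FPKM + 0.1) by limma 3.58.1 (R 4.3.3) with trend and robust options, for genes that reached 1 FPKM in 3 or more libraries. This scale understates the fold of low genes. P-values were adjusted over all genes tested by Benjamini-Hochberg. The fit was tested on simulated data. Python 3.11.15 with numpy 2.4.6 and pandas 2.3.3 gave the counts, and matplotlib 3.10.9 the plots. Groups came from the sample labels, and every column was used.

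Members and named genes were chosen with earlier results of these data known. The named genes were the highest in each tissue and among those absent from Bloomsdale, those with Bloomsdale signal in all 3 libraries of the other tissue, those with the largest leaf to root difference or spread, and those nearest a threshold. Other genes named were picked after their values were seen.

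Labels give the groups the same replicate numbers. Same-numbered roots of the genotypes deviated together over genes (r = 0.219, 0.200 and 0.219 for numbers 1, 2 and 3). The values for the leaves were 0.042, -0.190 and -0.162, and those for PI175311 leaf with root 0.042, -0.182 and -0.183. The alternative with a block was fitted in every comparison alike, though only the root values were all above 0. Alternatives were other thresholds, added FPKM, filters, scalings, limma options, limma-voom on the fragments, a replicate block, 1 fit over 12 libraries and each library left out in turn. Where a library was left out, the filter was 1 FPKM in 2 or more libraries.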

Additional observations from a re-analysis of the deposited data

How the results depend on the processing

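With at least 5 FPKM asked of PI175311, the rule was met by 27 genes in leaf, 19 in root and 37 in all, with 24 absent from Bloomsdale in both tissues. With libraries left out in turn these were 85 to 109, 56 to 100, 103 to 138 and 68 to 82, the 100 in root coming without Bloomsdale root 3. The counts called in the tissue that did not choose the genes were 36 to 59 for the leaf-rule genes in root, lowest without Bloomsdale root 1 (37) or root 2 (36), and 37 to 41 for the root-rule genes in leaf. A mean of at least 5 FPKM left 21 and 11 to test and called 20 and 11, and for leaf against root in PI175311 it left 6 genes and called 0 in either direction (0 at an unadjusted p under 0.05 as well).

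Of the 32 genes of both rules, the count higher in leaf was 2 with 1 FPKM added, 0 with 0.01 FPKM added (0 at an unadjusted p under 0.05), 5 after scaling by the median of ratios, 4 after quantile normalization and 0 to 3 with libraries left out. The count higher in root was 8 with 1 FPKM added, 2 with quantile normalization, 8 without the trend and robust options, 7 with limma-voom and 3 to 6 with libraries left out. The cause of these shifts was not tested beyond the scaling. With the replicate block the counts stayed at 52, 37, 1 and 4. Of 311 values of 21 named genes under the alternatives, 266 kept their direction and side of the threshold, 22 gained a call, 14 lost one and 9 changed direction. The last were leaf minus root differences that were not called in any of these settings. With median-of-ratios scaling Spo04162 went from -0.53 to 0.03, Spo09657 from -0.25 to 0.30 and Spo00033 from -0.21 to 0.32, and with quantile normalization Spo09657 went to 0.29 and Spo00033 to 0.52. With libraries left out in turn, Spo09657 ran from -0.93 to 0.64 (above 0 without PI175311 leaf 3 or root 2) and Spo00033 from -0.55 to 0.13 (above 0 without leaf 3 or root 3). Genes of few fragments are limited by counting error, and genes at 0 cannot be placed below their floor.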
